A study of Arabidopsis thaliana with 47 samples.

Results

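MORC7 binding was compared between Arabidopsis plants without the largest subunit of RNA polymerase V (nrpe1, 2 libraries) and plants with it (wild type, 3 libraries), which are 5 of the 47 samples of the series. Peaks were taken from the deposited list of each library on the 5 nuclear chromosomes where the fold enrichment over control was above 2 and the q value below 0.01. This left 8173, 8259 and 7952 peaks in wild-type replicates 1 to 3, and 5927 and 6319 in nrpe1 replicates 1 and 2. A wild-type region was a merged interval with a peak in at least 2 of the 3 wild-type libraries, and there were 6424 of them. A region was called kept where both nrpe1 libraries had an overlapping peak, lost where neither had one, and new where both nrpe1 libraries had a peak and no wild-type library had one.

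All 5 compared libraries were anti-FLAG chromatin immunoprecipitations from Columbia-0 floral tissue at 5 to 6 weeks. The wild-type plants carried MORC7 with 3 FLAG tags under the MORC7 promoter in the morc7-1 mutant. For the mutant, the same transgene was crossed into nrpe1-11, and F2 or F3 plants homozygous for nrpe1-11 and heterozygous or homozygous for the transgene were used. Transgene dose and the cross therefore go with the genotype and cannot be told apart from it. Whether the nrpe1 plants also carried morc7-1 is not stated in the sources used here, so untagged MORC7 may differ too. Other mutants used here for reference were made with the same transgene, namely nrpd1-4 (2 libraries), nrpe1-11 nrpd1-4 (2 libraries) and dms3-4 (3 libraries), besides 1 met1 library and 2 FLAG libraries of untagged plants. Also read were 2 libraries of FLAG-tagged MORC4 in the morc4-1 mutant, 1 wild-type library of RNA polymerase II (Pol II) and 3 wild-type RNA libraries. The lists hold no expression of NRPE1, so the genotype could not be checked from them.

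MORC proteins are ATPases of the GHKL family that silence transposons and genes downstream of, or alongside, DNA methylation. In RNA-directed DNA methylation (RdDM), RNA polymerase IV (NRPD1) starts the production of small interfering RNAs, and RNA polymerase V (NRPE1), helped onto chromatin by the DDR complex of DRD1, DMS3 and RDM1, makes scaffold transcripts at which these small RNAs guide the methyltransferase DRM2. MORC7 is one of the MORC proteins found at RdDM sites. The comparison asked which of its sites were still bound without polymerase V.

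Most strongly bound wild-type regions were found again in both nrpe1 libraries, a small set of strong regions was not, and few regions were new. Of the 6424 wild-type regions, 3777 (58.8%) were kept, 1261 (19.6%) had a peak in 1 of the 2 nrpe1 libraries, and 1386 (21.6%) were lost. The 2 nrpe1 libraries shared 4319 merged regions, of which 50 (1.16%) were new. Regions bound in all 3 wild-type libraries (2732) were kept in 83.6% of cases and lost in 4.72%, while those bound in 2 of the 3 (3692) were kept in 40.5% and lost in 34.0%. So 1257 of the 1386 lost regions were also missing from 1 of the wild-type libraries.

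The sequences of the strongest lost and new regions are shown first, because several of them turned out to share long runs of identical bases. They are the 151 bases centred on the summit, read from the RefSeq genome of the TAIR10 chromosomes, plus strand, and capitals mark runs of at least 14 bases that also occur, on either strand, in another of the 5 strongest regions of the same class. The first 4 are lost regions, at chr2:13404422-13404572, chr3:21026406-21026556, chr3:4494239-4494389 and chr5:14971427-14971577.
lost region at ATNTH1 (AT2G31450): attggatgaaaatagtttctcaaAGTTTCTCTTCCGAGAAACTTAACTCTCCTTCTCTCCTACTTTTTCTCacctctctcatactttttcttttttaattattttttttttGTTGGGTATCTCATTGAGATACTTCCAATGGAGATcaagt
lost region at AT3G08725: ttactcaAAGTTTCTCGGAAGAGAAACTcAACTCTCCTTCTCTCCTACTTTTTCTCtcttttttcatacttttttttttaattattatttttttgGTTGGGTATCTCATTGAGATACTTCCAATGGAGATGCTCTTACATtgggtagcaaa
lost region at PRA1.F4 (AT3G13710): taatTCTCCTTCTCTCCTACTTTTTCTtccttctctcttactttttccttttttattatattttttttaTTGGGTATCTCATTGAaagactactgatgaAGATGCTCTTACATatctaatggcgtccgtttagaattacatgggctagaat
lost region at ARLA1A (AT5G37680): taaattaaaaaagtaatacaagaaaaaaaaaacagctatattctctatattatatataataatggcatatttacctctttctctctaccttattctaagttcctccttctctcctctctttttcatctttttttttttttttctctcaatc

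The windows at ATNTH1, AT3G08725 and PRA1.F4 shared 83, 93 and 53 of their 151 bases in such runs, and the window at ARLA1A shared none. ATNTH1 encodes a DNA glycosylase of base excision repair, PRA1.F4 a prenylated RAB acceptor, ARLA1A a small GTPase of the ARF-like family, and AT3G08725 is annotated as a long non-coding RNA. The 14-base word AAGAGCATCTCCAT, searched on both strands in the 301 bases around the summit, was the one found in most of the 38 strong lost regions defined further on (5 of 38, 13.2%), tied with 1 other word, and it stands on the minus strand in the window printed for AT3G08725. It was in 1 of 1552 strong kept regions (0.0644%) and in 13 of all 6424 wild-type regions (0.202%). The nuclear chromosomes held 27 copies, of which 10 lay in kept and 8 in lost regions. The word was picked for being common, so its share among the strong lost regions is a description.

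Of the 5 strongest new regions, 3 shared sequence with one another and 2, at RPP5 (AT4G16950) and AT4G10230, shared none. The 3 that did lie at chr5:14003751-14003901, chr5:14847516-14847666 and chr1:16988659-16988809, and runs of at least 14 bases shared among them covered 112, 87 and 121 of the 151 bases.
new region near AT5G35830: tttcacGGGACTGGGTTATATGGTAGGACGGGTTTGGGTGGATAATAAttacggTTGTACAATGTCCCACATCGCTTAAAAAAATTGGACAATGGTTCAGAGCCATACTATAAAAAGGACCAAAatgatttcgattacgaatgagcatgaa
new region near AT5G37442: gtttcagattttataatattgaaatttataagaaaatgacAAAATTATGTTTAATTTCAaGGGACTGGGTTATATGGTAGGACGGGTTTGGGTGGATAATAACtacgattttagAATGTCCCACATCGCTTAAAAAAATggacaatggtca
new region near SADHU9-1 (AT1G44935): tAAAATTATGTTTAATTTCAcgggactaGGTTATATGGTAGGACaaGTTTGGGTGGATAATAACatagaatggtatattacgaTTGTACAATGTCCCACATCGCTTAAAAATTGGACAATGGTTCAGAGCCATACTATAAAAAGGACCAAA

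The word CCCACATCGCTTAA, visible in all 3 on the plus strand, was in the 301-base windows of 4 of the 50 new regions (8.00%) and of none of the 6424 wild-type regions. It had 20 copies on the nuclear chromosomes, 4 of them inside new regions and 2 inside kept ones, and it was 1 of 52 words that were equally common among the new regions. The other new region with it lay near SPH8 (AT5G38435), a member of the S-protein homologue family. SADHU9-1 is annotated as a pseudogene and belongs to the Sadhu retroposons. For contrast, the windows of the strongest kept regions, such as the pair at chr3:13046729-13046879 and chr2:1740732-1740882, shared no run of that length with one another.
kept region at AT3G32040: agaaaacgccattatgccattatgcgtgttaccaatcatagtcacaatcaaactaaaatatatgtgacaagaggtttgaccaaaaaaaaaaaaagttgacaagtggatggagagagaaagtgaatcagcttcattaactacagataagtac
kept region at AT2G04940: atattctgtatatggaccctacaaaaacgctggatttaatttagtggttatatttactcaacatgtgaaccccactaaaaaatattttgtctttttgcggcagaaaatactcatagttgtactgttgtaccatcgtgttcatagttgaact

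Recovery was then measured in the same way for wild-type and nrpe1 libraries, by leaving out each wild-type library in turn and asking how many of the regions common to the other 2 it found. Wild-type replicates 1, 2 and 3 recovered 95.9%, 51.3% and 74.6% of such regions, and nrpe1 replicates 1 and 2 recovered 75.1% and 84.3%, as means over the 3 sets. The nrpe1 libraries lay inside the wild-type range. The means were 73.9% ± 22.3 (SD, n = 3) in wild type and 79.7% ± 6.51 (SD, n = 2) in nrpe1 (exact permutation test over the 5 libraries, two-sided, p = 0.7). In this test each wild-type library was scored on its own set and each nrpe1 library on all 3. The spread therefore mixes sets with libraries, here and for the measures below, except the pericentromeric share of peaks. With 3 libraries against 2 the smallest p this test can give is 0.1, so none of the 8 measures tested this way could reach 0.05, and all 8 Benjamini-Hochberg adjusted values were 1. Like for like, on the 2849 regions common to wild-type replicates 2 and 3, replicate 1 found 95.9% and the nrpe1 libraries 83.9% and 91.0%. On the 5324 regions common to replicates 1 and 3, replicate 2 found 51.3% and the nrpe1 libraries 69.3% and 77.4%. On the 3870 regions common to replicates 1 and 2, replicate 3 found 74.6% and the nrpe1 libraries 72.0% and 84.3%.

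The lists themselves differed in form as much between replicates as between genotypes. Wild-type replicate 2 had narrow peaks (median 163 bp) that covered 1.97 Mb, against 649 and 981 bp and 7.32 and 10.8 Mb in wild-type replicates 1 and 3. The nrpe1 libraries had medians of 414 and 883 bp and covered 3.85 and 7.60 Mb. The list of wild-type replicate 1 held 4110 repeated entries and no entry with a q value above 0.01, unlike the other 4. Peak names in 4 of the 5 lists carried an 8-digit label of unstated meaning, which differed in each of the 4. That of nrpe1 replicate 2 also stood in the lists of dms3 replicate 1 and met1 replicate 2. The part of these differences in the values reported here was not tested.

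Recovery rose with the strength of binding in wild type. When the regions common to the other 2 wild-type libraries were cut into quintiles by their mean percentile of fold enrichment, the top quintile was recovered at 100%, 95.1% and 100% by wild-type replicates 1 to 3 and at 98.2% and 97.7% by the nrpe1 libraries. The groups overlapped, with means of 98.4% and 97.9% (exact permutation p = 1). In the bottom quintile the wild-type libraries recovered 85.6%, 35.5% and 32.6% and the nrpe1 libraries 43.9% and 62.8%. These also overlapped (means 51.2% and 53.3%, exact permutation p = 1). Weakly bound regions were thus missed often by libraries of both genotypes. In the top quintile, wild-type replicates 1 and 3 missed 0 of 569 and 0 of 774 regions, whereas nrpe1 replicate 1 missed 6 and 11 of them and nrpe1 replicate 2 missed 10 and 14. Wild-type replicate 2 went the other way, missing 52 of 1064 regions where the nrpe1 libraries missed 32 and 36.

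**Figure D1:**
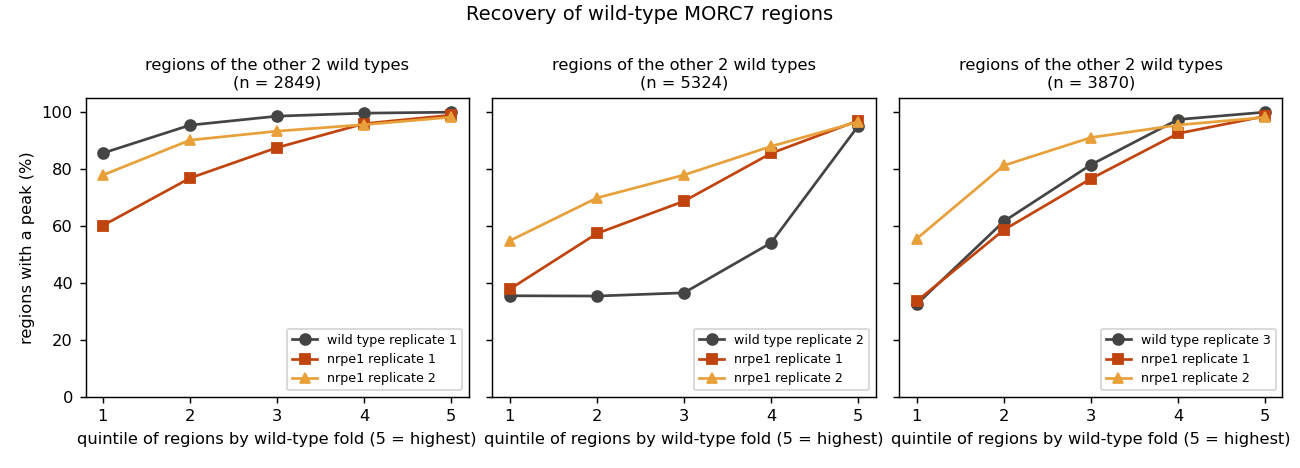
Share of wild-type MORC7 regions with a peak (%, y axis) by quintile of wild-type fold enrichment (x axis, 5 is the highest). Each panel takes the regions common to 2 wild-type libraries and shows the left-out wild-type library (dark) and both nrpe1 libraries (red and orange). All lines end between 95.1% and 100% in the top quintile, and the nrpe1 lines lie below the left-out library in the first panel and above it in the second.

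By chromosome region, wild-type sites in pericentromeres were kept more often than those on the arms. Among weakly bound sites of at least 2 wild-type libraries they were also lost more often, but not among sites of all 3. A pericentromere was taken as the gene-poor stretch around each centromere, where the smoothed count of protein-coding genes fell below 0.5 of the chromosome's median. Of the 1071 pericentromeric wild-type regions 74.1% were kept and 16.4% lost, and of the 5353 arm regions 55.7% were kept and 22.6% lost. Within quintiles of wild-type strength, from the lowest, the lost shares were 52.0%, 37.6%, 24.6%, 8.79% and 0.985% in pericentromeres and 48.7%, 26.7%, 15.6%, 11.7% and 3.87% on arms, so the order of the lost shares turned between quintiles 3 and 4. Among regions of all 3 wild-type libraries, 3 of 489 pericentromeric regions (0.613%) and 126 of 2243 arm regions (5.62%) were lost. There the lost shares in quintiles 1 to 3 were 0%, 0% and 6.25% in pericentromeres, from only 1, 10 and 48 regions. On arms they were 19.0%, 5.22% and 6.84%, so the turn was not seen in this set. The difference in recovery, pericentromere minus arm, was 18.0 and 9.35 percentage points in the nrpe1 libraries, as means over the 3 sets. It was 3.08, −6.30 and 28.4 in wild-type replicates 1 to 3, each scored on its own set. The nrpe1 means lay within the wild-type values (exact permutation p = 0.8), but this comparison mixes the spread between sets with that between libraries. On the same 3 sets in turn, nrpe1 replicate 1 gave 15.2, 9.40 and 29.6, each above the wild-type library of that set. Replicate 2 of nrpe1 gave 7.69, 4.54 and 15.8, the last of them below wild-type replicate 3. The share of all peaks lying in pericentromeres was 25.1% and 17.1% in nrpe1 and 15.8%, 11.95% and 21.3% in wild type (exact permutation p = 0.4). The 5 chromosomes were alike, with 56.8% to 61.3% of regions kept.

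By gene context, regions away from genes were kept more often than those at genes. Of 1924 regions more than 1 kb from any protein-coding gene and inside no other gene 70.6% were kept and 16.2% lost. The kept share was 50.4% among 1213 regions with their summit in a protein-coding gene, 54.1% among 2217 within 1 kb upstream of one and 55.6% among 829 within 1 kb downstream. Gene bodies minus regions away from genes gave differences in recovery of −15.9 and −10.5 percentage points in nrpe1 and −3.02, 8.67 and −19.4 in wild type (exact permutation p = 0.5). Upstream regions gave −14.5 and −9.06 in nrpe1 and −3.51, 3.83 and −17.3 in wild type (exact permutation p = 0.5). Both gaps were present in each nrpe1 library, whose values here are means over the 3 sets. On the sets scored by wild-type replicates 1, 2 and 3 in turn, gene bodies gave −14.4, −12.3 and −21.1 in nrpe1 replicate 1. Replicate 2 of nrpe1 gave −8.59, −7.89 and −15.0. Upstream regions gave −13.6, −10.5 and −19.4 in nrpe1 replicate 1, and −8.51, −6.32 and −12.3 in replicate 2. Against wild-type replicate 3, both gaps were thus larger in nrpe1 replicate 1 and smaller in nrpe1 replicate 2. Regions of like strength differed less. In the top quintile 92.6% of gene-body regions and 96.0% of regions away from genes were kept, in quintile 2, where the gap was widest, 38.5% and 50.4%, and in the bottom quintile 21.1% and 26.3%.

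**Figure D2:**
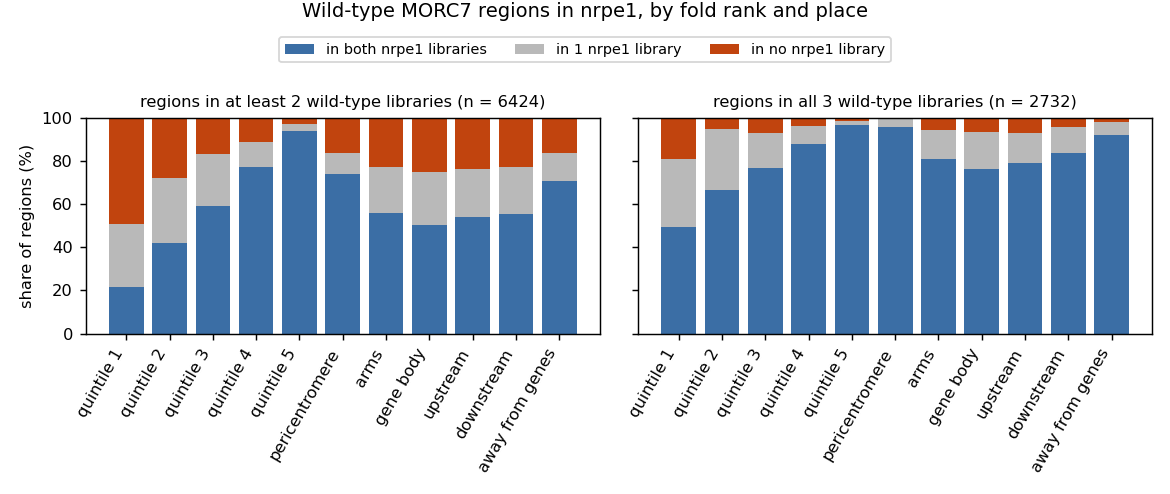
Share of wild-type regions (%, y axis) with a peak in both nrpe1 libraries (blue), in 1 (grey) or in none (red), by quintile of wild-type fold enrichment and by place. The left panel shows the 6424 regions of at least 2 wild-type libraries and the right panel the 2732 regions of all 3. The kept share climbs from 21.5% in the bottom quintile to 94.1% in the top quintile on the left, and from 49.3% to 96.5% on the right.

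Many lost regions were not empty in nrpe1. Of the 1386 lost regions, 930 (67.1%) held a deposited nrpe1 peak that fell below the thresholds, 924 of them in replicate 2 and 70 in replicate 1. The median fold of these weak peaks was 1.76 in replicate 2 and 1.86 in replicate 1. The lost class therefore held many regions with enrichment near the limit of 2, and 456 lost regions had no deposited nrpe1 peak. The list of nrpe1 replicate 1 held few weak entries at all, with 6615 nuclear entries and 5927 peaks past the thresholds. In replicate 2 these were 12656 and 6319. A missing entry in replicate 1, here and at the regions named below, therefore does not show that binding was absent. Lost regions were also narrower, with a median merged width of 800 bp against 1358 bp for kept regions. In wild type 629 of them were in the bottom quintile, 359 in the next and 38 in the top quintile, of which 15 were bound in all 3 wild-type libraries.

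Another set of 38 regions combined strong wild-type binding with loss. They were called in all 3 wild-type libraries, lay in the top 2 quintiles of wild-type fold rank and had no nrpe1 peak past the thresholds. They are called strong lost regions here, a definition made after the values were seen, and they were 38 of the 1660 regions with that wild-type support (2.29%). All 38 lay on chromosome arms, out of 1230 such regions there (3.09%), and none of the 430 strong regions in pericentromeres was lost. A floor of 3 regions would put that share at up to 0.698%, which does not cover the spread between libraries. Their summits fell upstream of a protein-coding gene in 20 cases (52.6%), against 31.0% of the 1552 strong kept regions, and away from genes in 7 (18.4% against 39.6%). The 2 sets were not matched. In the top quintile were 15 of the 38 and 1028 of the 1552, and median widths were 1047.5 and 2062 bp. Of the strong kept regions 27.1% were pericentromeric. Of the 38, 26 had a nrpe1 replicate 2 peak below the thresholds, 1 had one in replicate 1 and 12 had none in either. The count was 18 without wild-type replicate 1, 116 without wild-type replicate 2, 64 without nrpe1 replicate 1 and 82 without nrpe1 replicate 2.

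The strongest lost region, 275 bp upstream of ATNTH1 (chr2:13403916-13405031), had fold enrichments of 5.81, 3.54 and 7.47 in wild-type replicates 1 to 3. In nrpe1 it had no deposited peak in replicate 1 and one of 1.88 in replicate 2. The region 637 bp from AT3G08725 (chr3:21025907-21026904) had 5.05, 3.83 and 6.77 in wild type, none in nrpe1 replicate 1 and 1.86 in replicate 2. The region upstream of PRA1.F4 (chr3:4493394-4495844) had 5.11, 3.78 and 6.66 in wild type, none and 1.75 in nrpe1, and 1.75 in untagged replicate 1. These 3 share the repeated sequence printed above, and the gap between genotypes in them follows from how lost regions were defined. The region 159 bp upstream of ARLA1A (chr5:14970868-14972246) had 5.65, 3.10 and 7.51 in wild type and no deposited peak in either nrpe1 library. The region 394 bp upstream of AT2G06995 (chr2:7632143-7633901), a long non-coding RNA, had 5.08, 3.06 and 6.03 in wild type, none and 1.39 in nrpe1.

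Among the other strong lost regions were ones near genes with known roles, which were named after their values were seen. A region upstream of P5CS2 (AT3G55610), a proline synthesis enzyme, had folds of 3.96, 3.19 and 6.45 in wild type, none and 1.68 in nrpe1. A region inside IAMT1 (AT5G55250), which methylates auxin, had 4.33, 2.57 and 6.54 in wild type, none and 1.68 in nrpe1. A region at TAS1B (AT1G50055), a precursor of trans-acting small interfering RNAs, had 3.76, 2.65 and 4.60 in wild type and 1.99 and 1.58 in nrpe1. The region at TAS1B had listed folds of 7.65 and 7.80 in nrpd1 and of 1.96 and 1.63 in the nrpd1 nrpe1 libraries. These folds are not scaled between lists, whose highest folds were 11.5 and 9.69 in nrpd1.

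**Figure D3:**
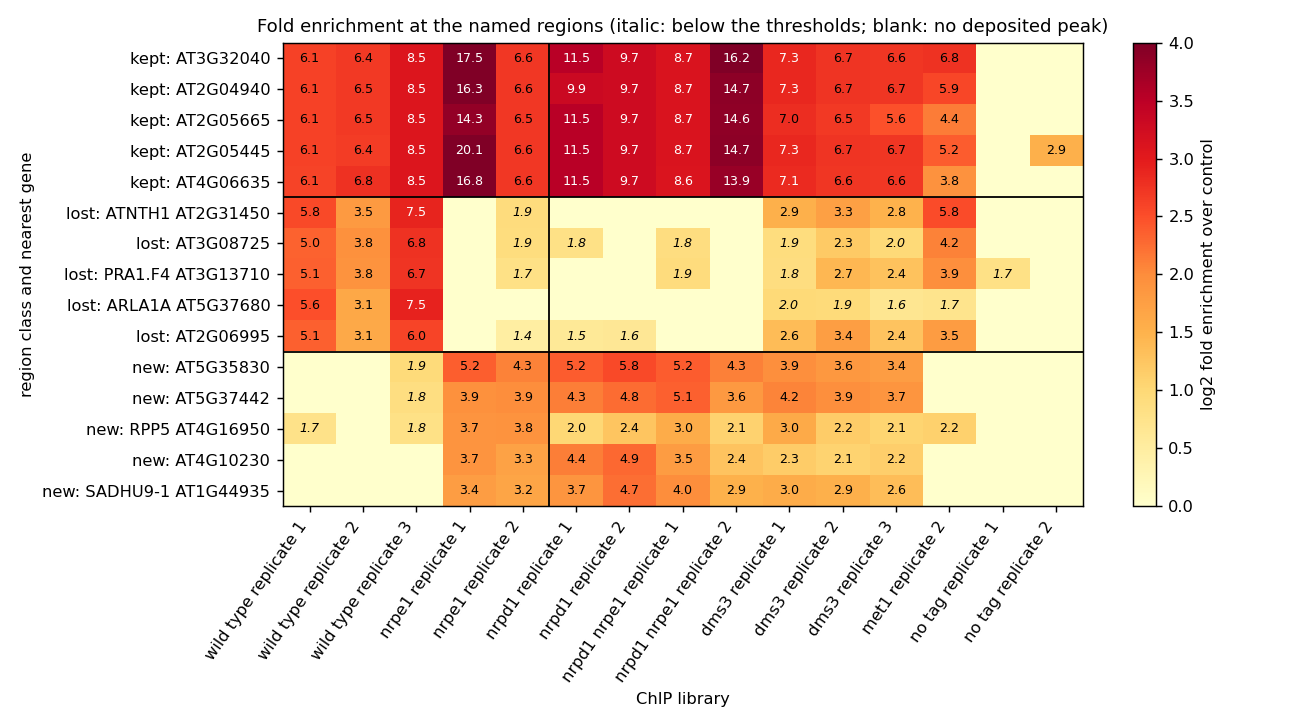
Fold enrichment over control at the 5 strongest kept, lost and new regions (rows, by nearest gene) in each library (columns); colour is log2 fold and the printed value is the linear fold. Italic values fell below the thresholds and blank cells had no deposited peak. Lost rows carry 3.1 to 7.5 in wild type and at most 1.9 in nrpe1, and new rows carry 3.2 to 5.2 in nrpe1 and at most 1.9 in wild type.

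Libraries that took no part in the definition were then read at the same regions, as a description. Of the 38 strong lost regions, 1 had a peak in each of the nrpd1 nrpe1 libraries (2.63%), and 37 had none in either. The strong kept regions had nrpd1 nrpe1 peaks in 98.8% and 83.7% of cases. As given above, they were more often in the top quintile and were wider, so the shares here and below are not of like regions. In nrpd1 alone 8 and 9 of the 38 had a peak (21.1% and 23.7%, against 97.8% and 98.1% of strong kept regions). In dms3 it was 13, 17 and 11 of 38 (34.2%, 44.7% and 28.9%, against 98.2% to 99.4%). In the met1 library 19 of 38 had one (50.0%, against 87.2%). In total 16 of the 38 were bound in none of the 7 nrpd1, nrpd1 nrpe1 and dms3 libraries, and none was bound in all 7. Of all 1660 strong regions, which include the 38, 17 were bound in none of the 7 and 1291 in all 7. The nrpd1 nrpe1 plants carry the same nrpe1-11 allele as the nrpe1 plants, so they share the genotype but not the libraries. The order across mutants was not tested.

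The same reading of all 1386 lost regions gave smaller contrasts. They had peaks in 25.3% and 6.93% of cases in nrpd1 nrpe1, 36.3% and 42.4% in nrpd1, and 13.997%, 43.2% and 20.1% in dms3. The shares over all wild-type regions were 67.1% and 42.9%, 65.8% and 68.5%, and 63.7%, 82.4% and 66.4%. MORC4, another MORC protein, in its own tagged line had a peak at 5 of the 38 strong lost regions in replicate 1 (13.2%, against 16.9% of strong kept regions) and at 32 in replicate 2 (84.2% against 80.2%). Untagged libraries had no peak past the thresholds at the 38, and had one at 0.129% and 3.09% of strong kept regions. A floor of 3 regions would put the share of the 38 at up to 7.89%, which does not cover the spread between libraries. Untagged replicate 1 did hold weaker peaks, with folds of 1.75 at the PRA1.F4 region and 1.84 at a region in AT3G27997.

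**Figure D4:**
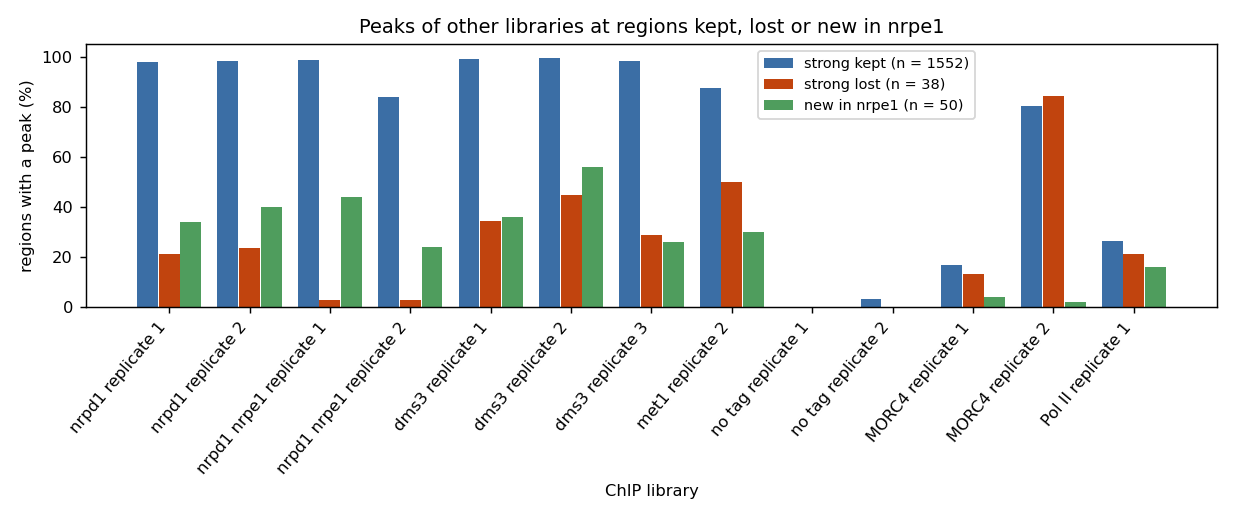
Share of strong kept (blue, n = 1552), strong lost (red, n = 38) and new regions (green, n = 50) with a peak (%, y axis) in each library that took no part in the comparison (x axis). Strong lost regions stand at 2.63% in both nrpd1 nrpe1 libraries and at 13.2% and 84.2% in MORC4 replicates 1 and 2, beside 98.8%, 83.7%, 16.9% and 80.2% of strong kept regions.

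New regions were few and mostly weak. Of the 50, 35 (70.0%) held a wild-type peak below the thresholds and 15 held no deposited wild-type peak at all. Only 5 exceeded a fold of 3 in both nrpe1 libraries. Gene bodies held 20 of the 50 summits (40.0%, against 18.9% of wild-type regions), and 9 lay in pericentromeres (18.0% against 16.7%). The count of new regions depended on every library, and was 109, 129 and 326 without wild-type replicates 1, 2 and 3 and 348 and 360 without nrpe1 replicates 1 and 2. Seen from the peaks, 10.7% and 11.2% of nrpe1 peaks lay outside the lists of a pair of wild-type libraries, against 15.2%, 33.9% and 31.3% of wild-type peaks. Both nrpe1 values lay below all 3 wild-type values, with means of 10.97% ± 0.373 (SD, n = 2) and 26.8% ± 10.1 (SD, n = 3), and the exact permutation p was 0.2. The nrpe1 lists were also shorter, and with the 2000 best peaks of each library the difference turned from −15.8 to 0.483 percentage points.

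The strongest new region (chr5:14003003-14004254) lay 2410 bp from AT5G35830 in a pericentromere. Its folds were 5.16 and 4.26 in nrpe1, and in wild type it had a peak of 1.93 in replicate 3 and none in the others. The second (chr5:14846535-14848002), 1326 bp from AT5G37442, had 3.85 and 3.92 in nrpe1 and only 1.82 in wild-type replicate 3. A region in the disease resistance gene RPP5 (AT4G16950; chr4:9544151-9545210) had 3.71 and 3.78 in nrpe1, and 1.71 and 1.75 in wild-type replicates 1 and 3. A region at the start of AT4G10230 (chr4:6365973-6367145) had 3.73 and 3.28 in nrpe1 and no deposited wild-type peak. The region 2882 bp from SADHU9-1 (chr1:16988440-16989111) had 3.44 and 3.18 and no wild-type peak either. All 5 had peaks past the thresholds in every nrpd1, nrpd1 nrpe1 and dms3 library. Over the 50 regions, 9 did so, 14 were in none of these 7 libraries, and MORC4 had peaks at 2 in replicate 1 and at 1 in replicate 2. Of the 6424 wild-type regions, 2377 were in all 7 and 480 in none. MORC4 had peaks at 10.1% and 50.9% of them, against 4% and 2% of the new regions.

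The strongest kept regions were bound in every mutant. The region downstream of AT3G32040 (chr3:13044871-13047614) had folds of 6.13, 6.45 and 8.54 in wild type and 17.5 and 6.57 in nrpe1. The region upstream of AT2G04940 (chr2:1740050-1742355) had 6.11, 6.49 and 8.54, and 16.3 and 6.57. The 3 others, near AT2G05665, AT2G05445 and AT4G06635, had wild-type values between 6.10 and 8.54, nrpe1 replicate 1 values of 14.3, 20.1 and 16.8 and replicate 2 values of 6.52 to 6.56. The region near AT2G05445 also had an untagged peak of 2.87, in replicate 2. Values repeated at the top because most lists had a ceiling, with 78 peaks of wild-type replicate 1, 61 of replicate 3 and 103 of nrpe1 replicate 2 within 2% of the highest fold of their list, against 1 in wild-type replicate 2 and 4 in nrpe1 replicate 1. Fold enrichments at the strongest sites are thus limits set by the list. Only the test of relative enrichment below used scaled folds, and that scaling does not remove a ceiling. The fold threshold and the folds printed for single regions are unscaled.

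Relative enrichment was tested at the 2284 regions that had a peak in all 5 libraries. Each library's log2 fold was centred on its median and the genotypes were compared by limma with Benjamini-Hochberg adjustment. No region passed an adjusted p of 0.05 (0% called, and 0% in either direction; lowest adjusted p 0.15), and 372 regions (16.3%) had an unadjusted p below 0.05. Changes were small, with 75.4% of regions within 0.5 on the log2 scale. Both nrpe1 libraries lay above all wild-type libraries at 589 regions (25.8%) and below them at 226 (9.89%). Among the 461 pericentromeric regions the shares were 45.6% and 7.81%, with a median difference of 0.39 on the log2 scale, and among the 1823 arm regions 20.8% and 10.4%, with a median of 0.09. In gene bodies (397 regions) 12.3% lay on each side. Without nrpe1 replicate 2, whose folds had a ceiling, the test called 302 of 2347 regions, 299 of them higher in the remaining nrpe1 library, and this lone library was assumed to vary like the wild type. Without nrpe1 replicate 1 it called none of 2539, with 62 at an unadjusted limma p below 0.05. Replicate 1 of nrpe1 had the widest span of folds, up to 21.6 against 6.13 to 8.58 at most in the other 4 lists, and the part of this span in the shares above was not tested.

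The regions nearest to a call are given as values only. On the higher side, a region at the pseudogene AT5G56605 (chr5:22915487-22916930) had folds of 2.51, 2.31 and 3.56 in wild type and 7.11 and 5.64 in nrpe1, a difference of 1.23 ± 0.28 (SE) on the centred log2 scale with a limma adjusted p of 0.15. A region 23 bp from MIR2933b (AT3G07685) had 3.29, 2.43 and 5.06 in wild type and 10.4 and 6.29 in nrpe1. The 3 others, at AT2G14843, AT3G44703 and AT2G04470, differed by 1.29, 1.42 and 1.38. On the lower side, a region in AT2G02400 (chr2:630654-631969) had 5.78, 3.09 and 6.48 in wild type and 2.24 and 2.15 in nrpe1, a difference of −1.12 ± 0.28 (SE) with a limma adjusted p of 0.15. The regions near AT3G48745 and AT2G00630, in ABCG38 (AT3G30842), a transporter of the ABCG family, and upstream of AT5G35926 differed by −1.12, −1.04, −0.86 and −0.84. For ABCG38 the unscaled wild-type folds of 4.89, 3.50 and 6.20 all lay above the unscaled nrpe1 folds of 2.55 and 2.59.

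**Figure D5:**
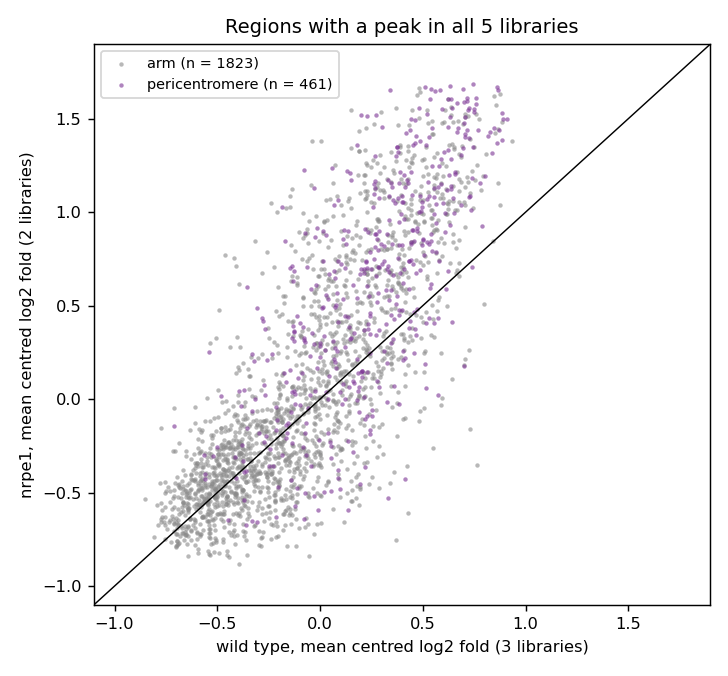
Mean centred log2 fold enrichment in nrpe1 (2 libraries, y axis) against wild type (3 libraries, x axis) at the 2284 regions with a peak in all 5 libraries; points are regions, purple in pericentromeres (n = 461) and grey on arms (n = 1823), and the line marks equal values. Pericentromeric points lie above the line by a median of 0.39 and arm points by 0.09.

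Fold ranks were shared across genotypes. Over these 2284 regions, which come from lists of different depth and form, Spearman's rho was 0.86 between the nrpe1 libraries, 0.82 between wild-type replicates 1 and 3 and 0.73, 0.65, 0.79 and 0.76 between those replicates and nrpe1. Wild-type replicate 2 gave 0.54 and 0.45 with the other wild types and 0.48 and 0.46 with nrpe1, so its values were low with both genotypes. Without that library, the values between genotypes (0.65 to 0.79) all lay below those within a genotype (0.82 and 0.86). The cause of either difference was not tested.

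Genes listed here as under RdDM or other epigenetic control showed each outcome. Of 8 such genes, 6 had a region within 1 kb, with kept regions at 3, lost regions at 3 and a region in 1 nrpe1 library at 1, whereas 6664 of 27444 protein-coding genes had any region (24.3%), and of these 58.9% had a kept and 24.8% a lost one. The list was put together with results of these data known. At SDC (AT2G17690), an F-box gene silenced by RdDM through promoter repeats, the upstream region was kept, with folds of 3.85, 2.78 and 7.22 in wild type and 5.18 and 5.91 in nrpe1. At FWA (AT4G25530), a homeobox gene silenced by methylation, the region at the start of the gene was lost, with 2.06 and 3.37 in wild-type replicates 1 and 3 and no kept peak in wild-type replicate 2 or nrpe1. QQS (AT3G30720), an orphan gene under epigenetic control, had 4.19, 2.79 and 7.56 in wild type, none in nrpe1 replicate 1 and 3.05 in replicate 2. ROS1 (AT2G36490, annotated as DML1), the DNA glycosylase that removes methylation, had both a kept and a lost region. At EPF2 (AT1G34245), a stomatal signalling peptide, the region was kept, at IBM1 (AT3G07610), a histone demethylase, it was lost, and HKT1 and MEA had no region. The lost regions at FWA and IBM1 were weak, each called in 2 wild-type libraries and in quintiles 1 and 2. Over all wild-type regions, 48.9% and 27.9% of those quintiles were lost.

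Of the 15 genes of the RdDM machinery, 4 had a region, near the 24.3% of all protein-coding genes, and all of these were kept, against 58.9% over all genes with a region. They were DCL3, the Dicer enzyme of the pathway, SUVH9, a reader that helps place polymerase V, CLSY1 (AT3G42670, annotated as CHR38), a remodeller that works with polymerase IV, and IDN2, a double-stranded RNA binding protein. The region at CLSY1 was among the strong ones, with 5.80, 4.62 and 8.49 in wild type and 15.8 and 6.47 in nrpe1. The one at DCL3 was weak, with 2.55, 2.15 and 3.70 in wild type and 2.19 and 2.43 in nrpe1. Of the 6 MORC genes, MORC5, MORC6 (AT1G19100) and MORC7 (AT4G24970) had kept regions, and at MORC7 the region covered the gene that the transgene also carries. Of the 4 loci that the study displayed, AT4G26360 and AT1G17410 had kept regions, and AT1G06690 and SUPERMAN had none in wild type or nrpe1.

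Sequence composition and gene activity were compared between classes as a description. In 301 bases around the summit, strong lost regions had a median GC content of 27.2% (quartiles 23.6 and 30.5) against 32.6% (28.6 and 36.2) for strong kept regions on arms and 34.6% (31.9 and 36.5) for new regions on arms. Cytosines in the CHH context, where H is any base but G, made up a median of 11.05 per 100 bases of both strands in strong lost and 12.96 in strong kept arm regions, and CG cytosines 0.997 and 1.33. Protein-coding genes within 1 kb of a strong lost summit (47 genes) had median transcript levels of 7.85, 6.25 and 7.71 TPM in the 3 wild-type RNA libraries. Those at strong kept regions (1056 genes) had 3.95, 3.82 and 3.95, and all 26712 measured genes 3.48, 3.31 and 3.48. Genes at all wild-type regions (5077 genes) had 5.21, 5.19 and 5.34. The 3 RNA libraries measured the same genes, so their likeness does not bear on whether the gene sets differ. The sets were not matched by place, since 27.1% of strong kept regions and none of the strong lost ones were pericentromeric. Wild-type Pol II peaks overlapped 21.1% of strong lost and 26.5% of strong kept regions.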

How the data were processed

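Per the labels and the study's methods, chromatin was immunoprecipitated with anti-FLAG from floral tissue, and the submitters' processing notes name Bowtie2 2.1.0, SAMtools 1.9, MACS2 2.1.1 and the TAIR10 genome. Which control library each list was called against is not given in the sources used here. The authors deposited 1 narrowPeak list per library, called per sample, whose column 7 is the fold enrichment over control (a ratio) and column 9 the −log10 q-value. Read depth is unknown, so no counting interval is given. For RNA, the deposited TPM of 3 wild-type libraries were used as levels only. RNA tables labelled nrpe1 were not used, because the mutated genes went against their labels. The ChIP libraries are separate samples in the labels, but nothing there says that they came from separate plants. The p-values therefore measure only the spread between these samples and, for measures scored on region sets, between those sets.

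Overlapping peaks of a list were merged, keeping the highest fold and its summit. Overlap meant 1 bp or more. Genes came from the RefSeq annotation of TAIR10.1. The lists reached its chromosome ends exactly except on chromosome 3, where the last peak ended at 23459413 of 23459830. A pericentromere was the longest run of 100 kb windows with a protein-coding gene count, averaged over 5 windows, below 0.5 of the median. Library measures were compared by exact permutation of the 5 libraries (two-sided, 10 arrangements) and fold enrichments by limma 3.58.1 in R 4.3.3, with Python 3.11.15, NumPy 2.4.6 and SciPy 1.17.1 for the rest. Overlap code and the limma step were tested on simulated data. Named regions were the 5 of highest mean fold percentile per class and the 5 of lowest p in each direction. Gene lists were of genes under RdDM or other epigenetic control, RdDM machinery and MORC genes. Members and lists were chosen with earlier results of these data known. Same-numbered libraries are not stated to be paired, and their deviations correlated at −0.07 and 0.33, so the block was an alternative only. Other alternatives were stricter or no thresholds, equal list lengths, a 50% overlap, removal of untagged peaks, and other region, position and scaling rules.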

Additional observations from a re-analysis of the deposited data

Results flagged for a closer look

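Wild-type replicate 2 listed 588 peaks on the mitochondrial genome, outside the nuclear chromosomes compared here. That was above both untagged libraries, which listed 10 and 157. The other libraries of the comparison listed 0 and 0 in wild-type replicates 1 and 3 and 156 and 0 in nrpe1 replicates 1 and 2. The same library had the narrowest peaks and the lowest recovery, and the part of the organelle peaks in those values was not tested.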

How the results depend on the processing

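Differences are nrpe1 minus wild type in percentage points. With fold and −log10 q both above 3, 1472 regions were kept, 513 lost and 76 new, strong lost regions numbered 12 and the top-quintile difference became 0.925. With all deposited peaks, strong lost regions numbered 20 and the top-quintile and bottom-quintile differences became 3.94 and −3.45. With the 2000 best peaks per library, 1116 regions were kept, 336 lost and 210 new, the bottom-quintile difference became −2.60 and that in peaks outside wild-type lists 0.483. Without untagged peaks the top-quintile difference became 0.0469. Requiring all 3 wild-type libraries gave 2283 kept and 129 lost regions, and any 1 of them 6448 lost. With the replicate block the recovery, top-quintile and bottom-quintile differences were 6.08, 0.371 and −7.24, no region was called in the fold test, and no other direction changed.

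Leaving out 1 library gave recovery differences of −2.43 (without wild-type replicate 2) to 12.8, top-quintile differences of −1.51 to 0.143 and bottom-quintile differences of −7.35 to 11.5. It gave 2315 (without wild-type replicate 1) to 4770 kept, 180 (without wild-type replicate 1) to 2379 (without nrpe1 replicate 2) lost, 109 to 360 new and 18 to 116 strong lost regions, and 0 to 302 calls in the fold test. Wild-type replicate 3 left out gave 471 lost regions. The cause of these changes was not tested. The differences for pericentromeres, gene bodies, upstream regions and the pericentromeric share of peaks kept their direction under each alternative run. The alternatives for strong lost regions were chosen after seeing the data. Lists without depth, ceilings on fold and 5 libraries limit what can be seen.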
